A study of Mus musculus with 16 samples.

Results

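The insulin and insulin-like growth factor (IGF) genes described here are 9 named genes of 24062 in the deposited count table. They were chosen as named genes of the pathway, with earlier results of these data known, and all 9 were present in both the count table and the FPKM table, in which reads are scaled by transcript length and by sequencing depth. They comprise the ligands Igf1 and Igf2, the receptors Igf1r and Insr, the adaptors Irs1 and Irs2, and the binding proteins Igfbp2, Igfbp4 and Igfbp5.

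Insulin and the IGFs bind receptor tyrosine kinases at the cell surface. The activated receptors phosphorylate the insulin receptor substrates, which recruit the phosphoinositide 3-kinase and Akt branch and the Ras and MAP kinase branch, and Akt in turn keeps FoxO transcription factors out of the nucleus. IGF binding proteins hold the IGFs outside the cell and limit or prolong their access to the receptor, and in the brain the pathway is known for its part in growth, neuronal survival, myelination and glucose handling.

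The mRNA came from whole brains, cerebellum included, of 16 female C57BL/6J mice killed on postnatal day 45, with 4 mice in each of 4 groups. WW (Water-Water) mice drank tap water throughout, NW (Nicotine-Water) mice had nicotine at 200 µg/ml in all bottles for 22 h each day, Water-Ethanol mice drank 20% v/v ethanol in limited daily sessions that ended with one of 4 h, and NE (Nicotine-Ethanol) mice had both drugs. All 4 groups shared strain, sex and age. Mice drank the drugs themselves, so dose was not fixed per mouse, and nicotine solution was the only fluid during its 22 h. The brain was taken directly after the last session, in which nicotine was absent for 4 h. The paper reports that NE mice drank more ethanol on the final day, with higher blood ethanol, than Water-Ethanol mice. Nicotine and ethanol dose thus cannot be told apart between these groups, nor in the pooled nicotine comparison and the interaction.

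Counted reads ranged from 27100352 to 32880979 per mouse. Neuronal markers were present in every mouse, with a summed level of 5626 to 6515 CPM, the read count scaled to a common library size. WW replicate 4 and NW replicate 3 stood apart by their cerebellar markers, with scores (mean log2 CPM of 6 markers, centred on all mice) of -1.38 and -0.90 against 0.04 to 0.27 in the other mice. Both were mice without ethanol, so the results below are also given without them where they matter. Markers of the leptomeninges, the membranes that cover the brain, scored from -0.06 to 0.30 in the mice without ethanol and from -0.26 to 0.13 in the mice with ethanol. All 10 of these markers were lower with ethanol, none passed the edgeR test (adjusted p under 0.05), and none was at 0. Olfactory bulb scores were -0.67 in Water-Ethanol replicate 3, -0.55 in NE replicate 3 and -0.43 in NW replicate 4, against -0.15 to 0.32 in the other mice. The mean microglia score was 0.08 without ethanol and -0.08 with it, while that of the choroid plexus went from -0.05 to 0.05. Mean scores were also lower with ethanol for oligodendrocytes (0.07 without, -0.07 with), astrocytes (0.04, -0.04), brain endothelium (0.04, -0.04) and neurons (0.02, -0.02). These further scores were not used as covariates.

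**Figure D1:**
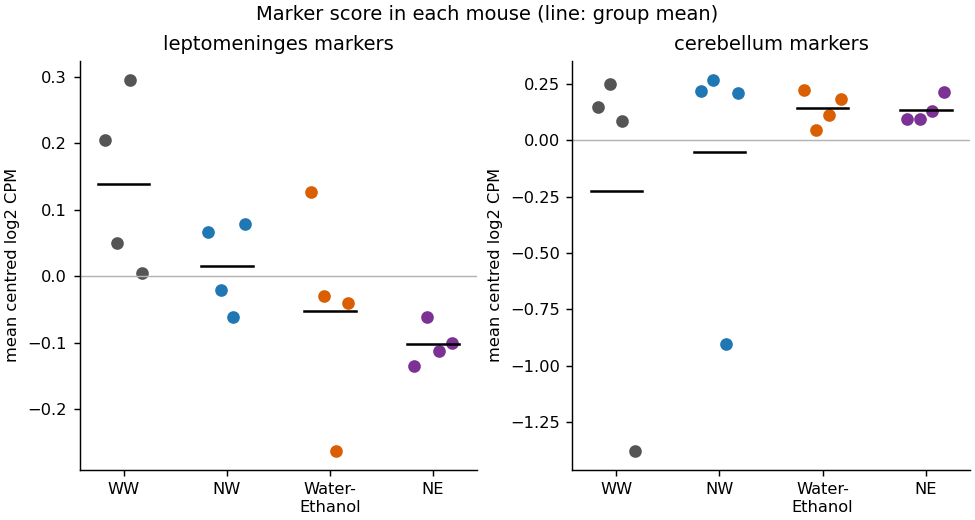
Marker score (mean log2 CPM of the list's genes, centred on all 16 mice) for leptomeninges and cerebellum in each mouse, by group. Each point is 1 mouse and each line a group mean. WW replicate 4 and NW replicate 3 lie at -1.38 and -0.90 for cerebellum, and the leptomeninges scores of the ethanol groups lie mostly below those of the groups without ethanol.

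Igf1r, Irs1 and Irs2 were the members that passed the test in any comparison, so their promoters are shown, each as 300 bases around the RefSeq start (GRCm38.p6) in the direction of transcription. Capitals mark the GC box GGGCGG or the E-box CACGTG, searched on both strands. The Igf1r sequence spans chr7:67952007-67952306 on the plus strand, that of Irs1 chr1:82291390-82291689 on the minus strand, and that of Irs2 chr8:11008880-11009179 on the minus strand.
Igf1r: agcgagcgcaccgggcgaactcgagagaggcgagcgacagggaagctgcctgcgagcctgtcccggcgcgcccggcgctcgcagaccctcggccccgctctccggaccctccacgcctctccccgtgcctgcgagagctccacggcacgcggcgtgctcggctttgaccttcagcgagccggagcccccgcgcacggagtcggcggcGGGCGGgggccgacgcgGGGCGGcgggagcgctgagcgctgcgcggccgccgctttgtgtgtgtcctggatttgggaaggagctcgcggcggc
Irs1: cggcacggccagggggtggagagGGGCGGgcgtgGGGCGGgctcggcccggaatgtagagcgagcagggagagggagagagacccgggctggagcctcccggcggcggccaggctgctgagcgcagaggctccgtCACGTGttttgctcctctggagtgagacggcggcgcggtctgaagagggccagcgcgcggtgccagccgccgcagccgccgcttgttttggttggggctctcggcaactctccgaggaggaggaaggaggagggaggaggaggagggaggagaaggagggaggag
Irs2: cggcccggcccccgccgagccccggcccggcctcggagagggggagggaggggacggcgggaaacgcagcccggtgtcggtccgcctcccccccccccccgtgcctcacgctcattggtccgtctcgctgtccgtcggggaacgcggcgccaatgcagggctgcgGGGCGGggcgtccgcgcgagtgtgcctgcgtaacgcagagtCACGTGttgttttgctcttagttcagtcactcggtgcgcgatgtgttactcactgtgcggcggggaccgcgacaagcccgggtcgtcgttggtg

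The GC content of these windows was 76% for Igf1r, 71.3% for Irs1 and 72% for Irs2. Igf1r and Irs1 held 2 GC boxes each and Irs2 held 1, a motif found in 35.7% of the 32851 RefSeq promoter windows of the same length. Irs1 and Irs2 each held 1 E-box and Igf1r had none, against 7.15% of all windows. The letters of the forkhead motif GTAAACA, present in 3.65% of windows, and of the cAMP response element TGACGTCA, present in 1.79%, occurred in none of the 3. These matches describe the sequence and are not evidence of binding. RefSeq windows were found for 8 of the 9 members. Of those that did not pass, Igfbp2 had a window (chr1:72824230-72824529) with 3 GC boxes and 1 E-box, and Igf2 one with 2 GC boxes. Those of Igf1, Igfbp4 and Igfbp5 held neither motif. These motifs were therefore not particular to the members that passed.

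The expression level of each gene relative to the others was read from FPKM, which is scaled by transcript length. Over the 16 mice Igfbp5 was highest, at 40.0 ± 1.93 FPKM (SD, n = 16), followed by Igfbp2 at 29.8 ± 2.03, Igf2 at 28.3 ± 2.54 and Igfbp4 at 25.4 ± 1.74. The adaptor Irs2 stood at 14.6 ± 1.82 FPKM, ahead of the receptors Igf1r at 10.7 ± 1.01 and Insr at 9.41 ± 0.65. The length behind the Irs2 value is uncertain, because its locus in the FPKM table is wider than its model in the count table, which ends short of the RefSeq start, so its place in this order is too. The locus of Igf2 was also wider in the FPKM table. Irs1 and Igf1 were lowest, at 4.78 ± 0.46 and 2.35 ± 0.27 FPKM. Neighbours whose ranges overlapped were Igfbp2 and Igf2, Igf2 and Igfbp4, Irs2 and Igf1r, and Igf1r and Insr. Within a mouse, Irs2 exceeded Igf1r and Igf1r exceeded Insr in 16 of 16 mice, whereas Igfbp2 exceeded Igf2 in 11 of 16. The genes for insulin itself were at the floor: Ins1 had 0 reads in every mouse, and Ins2 had between 0 and 3 reads.

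**Figure D2:**
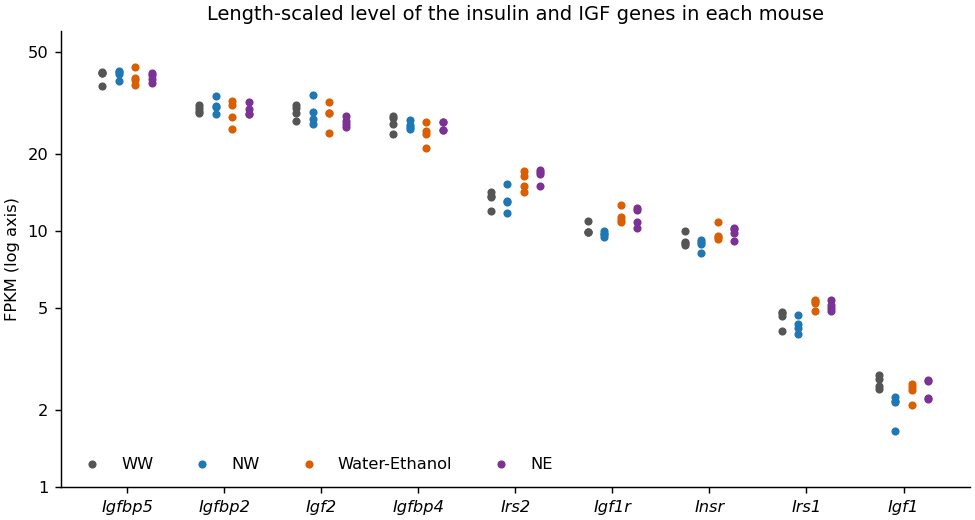
FPKM of the 9 genes in each of the 16 mice on a log axis, ordered by mean level, with 1 point per mouse coloured by group. Igfbp5 lies above all others in every mouse, at a mean of 40.0, and Igf1 lies lowest, at a mean of 2.35.

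Ethanol drinking was the exposure with which genes of this group changed. When Water-Ethanol and NE were compared with WW and NW (8 mice each), Igf1r, Irs1 and Irs2 were higher and passed the test, and the other 6 members did not. The changes were small, between 14.5% and 19.6%. Across all genes, 702 of 15592 passed in this comparison (4.5%), 458 of them higher (2.94%) and 244 lower (1.56%). An unadjusted p under 0.05 was reached by 4 members, the 3 above and Insr, against 22.9% of all genes. After correction for GC content and length the same comparison gave 347 higher and 366 lower, so the split by direction over all genes depended on that step, while the 3 members still passed. Whole brain is a mixture, and fewer cells of a type and less RNA per cell cannot be told apart in these data.

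The median log2 fold change of the 9 members with ethanol was 0.04, against 0.00208 over all genes tested, with 5 members above 0 and 4 below. All levels from here on are CPM scaled by TMM factors, and all tests are edgeR quasi-likelihood tests with Benjamini-Hochberg adjustment over all genes tested unless another is named. Fold changes are given on the log2 scale with their standard errors (SE). The pairwise comparisons with WW share the same 4 WW mice, and the pooled comparisons use those mice again.

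**Figure D3:**
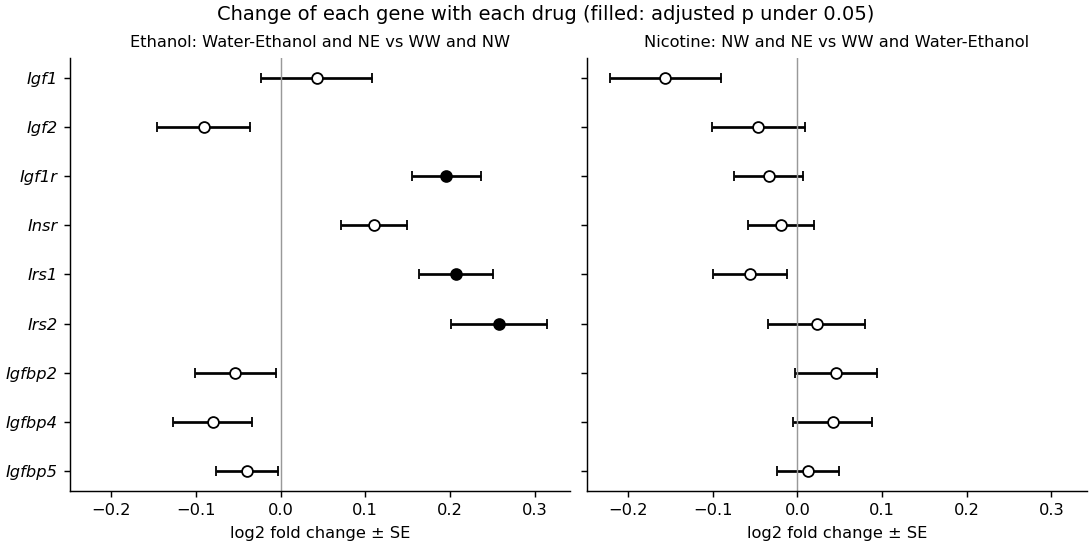
Log2 fold change ± SE of each gene in the pooled ethanol comparison (Water-Ethanol and NE vs WW and NW) and the pooled nicotine comparison (NW and NE vs WW and Water-Ethanol), from the edgeR fit of 16 mice. Filled points have an adjusted p under 0.05: Igf1r, Irs1 and Irs2 with ethanol, at 0.20, 0.21 and 0.26, and none with nicotine.

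The ligand Igf1 (chr10:87859056-87937047, plus strand, GRCm38), a growth hormone dependent factor that is also made in the brain, read 16.5, 17.02, 18.1 and 18.5 CPM in the 4 WW mice and 11.02, 15.3, 14.9 and 14.9 CPM in the 4 NW mice. The NW mice were all below the WW mice. The log2 fold change was -0.32 ± 0.10 (SE). The exact two-sided permutation test on 4 against 4 mice gave p = 0.0286, the smallest it allows. Any groups of 4 that do not overlap give this p, so it adds nothing to the lack of overlap. The adjusted p from edgeR was 0.336, so Igf1 did not pass, and 5.96% of all genes had NW and WW groups that did not overlap (4.25% with NW lower). No gene of 15344 passed the edgeR test in that comparison (0.0%), 1295 genes had an unadjusted p under 0.05 (8.44%), and the single member among them was Igf1. DESeq2 called 121 genes there, all lower in NW, the likelihood-ratio test 113 (106 lower) and the edgeR fit of all 16 mice 112 (109 lower). None of these called a member. The paper places Igf1 in a co-expression module (Blue) that was lower in NW than in WW.

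In the ethanol groups, Igf1 read 16.6, 16.4, 14.3 and 17.1 CPM in Water-Ethanol and 17.2, 15.1, 14.7 and 17.9 CPM in NE. These ranges overlapped each other and reached up into the WW range. Water-Ethanol differed from WW by -0.12 ± 0.07 (adjusted p = 0.334, edgeR) and NE from WW by -0.11 ± 0.07 (adjusted p = 0.466). The pooled nicotine difference was -0.16 ± 0.07 (adjusted p = 0.423, edgeR) and the pooled ethanol difference was 0.04 ± 0.07 (adjusted p = 0.734).

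The interaction of nicotine and ethanol asks whether the ethanol difference depended on nicotine. For Igf1 it was 0.34 ± 0.13, with an unadjusted p of 0.0189 and an adjusted p of 0.687 (edgeR), and Igf1 was the single member with an unadjusted p under 0.05. Over all genes 1054 of 15592 had an unadjusted p under 0.05 in the interaction (6.76%) and none passed after adjustment.

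The ligand Igf2 (chr7:142650768-142661035, minus strand), an imprinted growth factor expressed mainly in the membranes and vessels of the postnatal brain, read 108, 106, 101 and 92.9 CPM in WW and 116, 91.2, 96.7 and 102 CPM in NW. It read 110.2, 100.5, 83.2 and 100.3 CPM in Water-Ethanol and 90.3, 98.6, 88.2 and 94.5 CPM in NE. All 4 groups overlapped. The lowest mean was in NE, at a log2 fold change of -0.13 ± 0.05 against WW with an adjusted p of 0.212 (edgeR). The pooled ethanol difference was -0.09 ± 0.06 (adjusted p = 0.333), and with the leptomeninges score in the model it was 0.04, the opposite sign. Exons of Igf2 and the antisense gene Igf2os share 98 bases, and strand use in the counting is not given in the sources used here, so reads there could belong to either gene.

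The receptor Igf1r (chr7:67952257-68233667, plus strand), through which both IGFs signal, read 127, 116, 116 and 115 CPM in WW and 110.4, 111, 118 and 114 CPM in NW. It read 132, 128, 147 and 125 CPM in Water-Ethanol and 142, 119.9, 140.5 and 127 CPM in NE. The 8 ethanol mice had a median of 129.8 CPM against 115 CPM in the 8 others, and 5 of the 8 lay above every mouse without ethanol. WW replicate 1 was the one mouse without ethanol that reached the ethanol range.

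Igf1r rose with ethanol by 14.5%, a log2 fold change of 0.20 ± 0.04 (adjusted p = 0.0129, edgeR). Each ethanol group showed the difference when set alone against WW, at 0.17 ± 0.05 in Water-Ethanol (adjusted p = 0.12) and 0.16 ± 0.06 in NE (adjusted p = 0.181), and neither passed by itself. The NW difference from WW was -0.06 ± 0.05 (adjusted p = 0.756), and the interaction was 0.06 ± 0.08 (adjusted p = 0.928).

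The receptor Insr (chr8:3150922-3279617, minus strand), which binds insulin and, in one splice form, Igf2, read 91.4, 83.4, 81.9 and 79.6 CPM in WW and 81.1, 75.5, 85.1 and 81.4 CPM in NW. It read 85.7, 84.2, 97.7 and 85.9 CPM in Water-Ethanol and 92.4, 83.8, 92.5 and 89.4 CPM in NE. The pooled groups overlapped widely, with medians of 87.7 CPM with ethanol and 81.7 CPM without. The pooled difference was 0.11 ± 0.04 with an unadjusted p of 0.0103 and an adjusted p of 0.103 (edgeR), so Insr did not pass.

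The adaptor Irs1 (chr1:82233105-82291439, minus strand), which couples both receptors to phosphoinositide 3-kinase, read 41.1, 43.1, 42.3 and 35.7 CPM in WW and 36.1, 35.1, 38.8 and 42.0 CPM in NW. It read 45.8, 46.8, 46.9 and 43.0 CPM in Water-Ethanol and 47.1, 44.6, 45.5 and 43.0 CPM in NE. All but 1 mouse in each ethanol group exceeded every mouse without ethanol, 6 of 8 in all. Irs1 rose with ethanol by 15.4%, a log2 fold change of 0.21 ± 0.04 (adjusted p = 0.0144, edgeR).

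Against WW alone, Irs1 differed by 0.17 ± 0.06 in Water-Ethanol (adjusted p = 0.15, edgeR), by 0.15 ± 0.06 in NE (adjusted p = 0.222) and by -0.09 ± 0.07 in NW (adjusted p = 0.76). None of these passed. The interaction was 0.08 ± 0.09 (adjusted p = 0.903).

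The adaptor Irs2 (chr8:10986964-11008430, minus strand in the gene model used here), a second substrate of the same receptors known for its role in brain growth and feeding, read 54.1, 54.4, 56.6 and 47.4 CPM in WW and 44.8, 51.6, 51.5 and 60.7 CPM in NW. It read 58.1, 55.6, 64.2 and 67.8 CPM in Water-Ethanol and 66.4, 65.4, 67.2 and 59.1 CPM in NE. The NE mice were all above the WW mice, and 5 of 8 ethanol mice lay above every mouse without ethanol. Irs2 rose with ethanol by 19.6%, a log2 fold change of 0.26 ± 0.06 (adjusted p = 0.0179, edgeR).

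The paper, which used Cuffdiff with a q threshold of 0.05, reports Irs2 among the genes higher in NE than in WW. In NE against WW alone the log2 fold change of Irs2 was 0.28 ± 0.06 here. The exact two-sided permutation test on 4 against 4 mice gave p = 0.0286, the smallest it allows and its value for any groups that do not overlap. Of all genes, 10.7% had NE and WW groups that did not overlap (5.22% with NE higher). The adjusted p was 0.0654 by edgeR, just outside the threshold, in a comparison where 48 of 15313 genes passed (0.313%). An unadjusted p under 0.05 was reached there by 4 members (Igf2, Igf1r, Irs1 and Irs2) and by 17.5% of all genes. DESeq2 gave an adjusted p of 0.00272, the edgeR likelihood-ratio test 0.00513, and leaving out WW replicate 4, one of the mice with low cerebellar markers, 0.042. The other settings did not call it. The adjusted p was 0.12 in the edgeR fit of all 16 mice, 0.216 with GC correction, 0.233 with GC and length correction, 0.723 with both marker scores, and between 0.0672 and 0.224 without any other single mouse. In Water-Ethanol against WW the difference was 0.21 ± 0.07 (adjusted p = 0.13, edgeR), where 70 of 15323 genes passed (0.457%) and where 3 members (Igf1r, Irs1 and Irs2) and 19.3% of all genes had an unadjusted p under 0.05. That count of 70 rested on single mice: it was 797 without WW replicate 4, 84 without WW replicate 1, and 0 or 1 without any one of the other 6 mice, and it was 606 with DESeq2. In NW against WW it was -0.03 ± 0.08 (adjusted p = 0.956). The interaction was 0.10 ± 0.11 (adjusted p = 0.904). Exons of Irs2 and 9530052E02Rik on the opposite strand share 162 bases.

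The calls of Igf1r, Irs1 and Irs2 with ethanol each held in 28 of 30 alternative settings, including the omission of each mouse in turn. With both mice of low cerebellar markers left out, the log2 fold changes were 0.20, 0.18 and 0.23 (adjusted p = 0.0135, 0.014 and 0.0255, edgeR). The calls were lost in the 2 settings that added the leptomeninges score to the model. With the leptomeninges and cerebellum scores as covariates, the log2 fold changes were 0.14 for Igf1r (adjusted p = 0.416), 0.19 for Irs1 (adjusted p = 0.276) and 0.21 for Irs2 (adjusted p = 0.365, edgeR), and 0 of 15592 genes passed, with 1683 at an unadjusted p under 0.05. With the leptomeninges score alone they were 0.15, 0.23 and 0.27 (adjusted p = 0.266, 0.162 and 0.183, edgeR), and 14 genes passed in all. The cause was not tested.

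**Figure D4:**
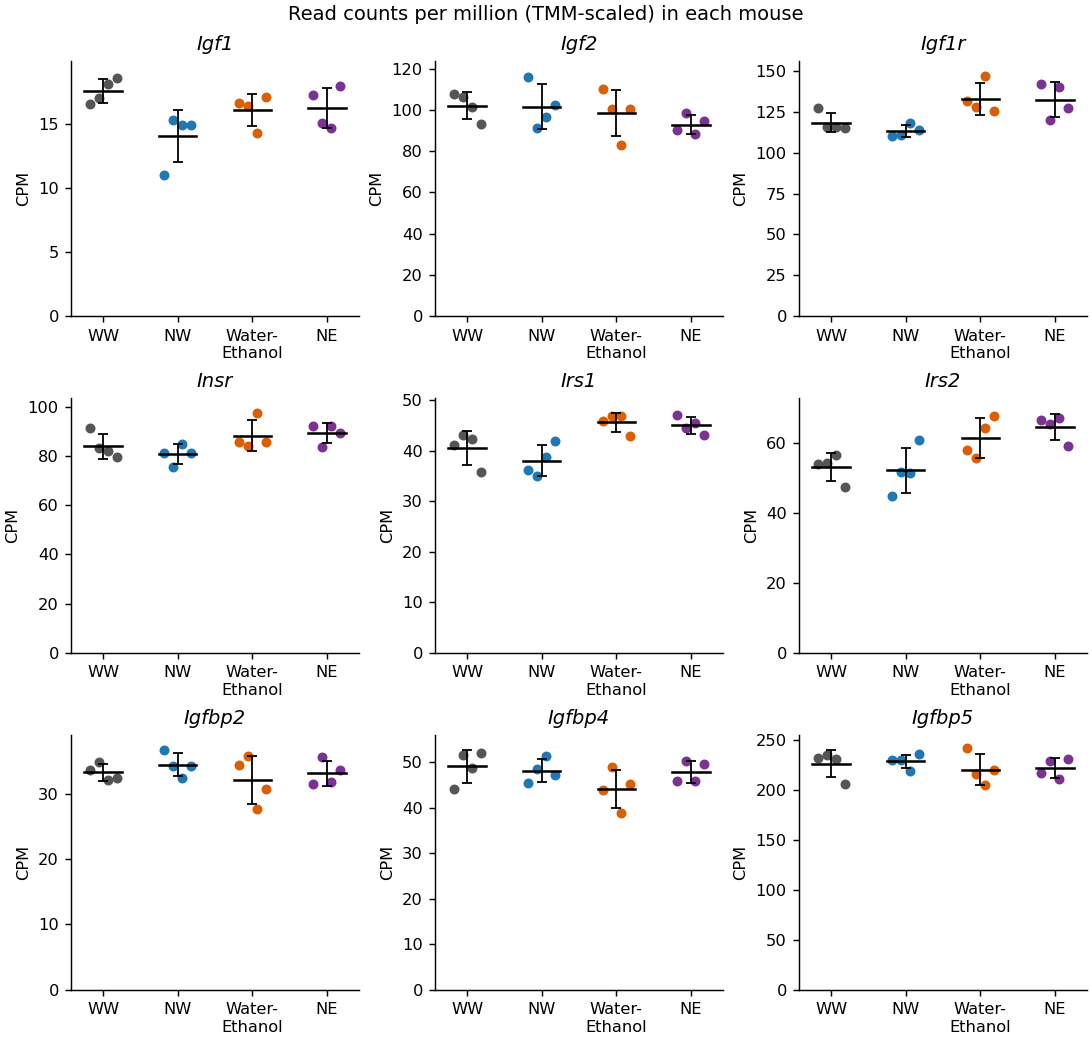
TMM-scaled CPM of each of the 9 genes in each mouse, by group. Points are mice, horizontal lines group means and bars the SD (n = 4), and every axis starts at 0. The group means of Igf1r, Irs1 and Irs2 lie higher in Water-Ethanol and NE than in WW and NW, though some mice overlap. The binding proteins overlap between all groups.

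The binding proteins did not pass in any comparison. Igfbp2 (chr1:72824480-72852471, plus strand), a carrier of IGFs in cerebrospinal fluid, read between 27.7 and 36.8 CPM over the 16 mice. Its group means were 33.3 ± 1.26 in WW, 34.5 ± 1.76 in NW, 32.2 ± 3.69 in Water-Ethanol and 33.1 ± 1.94 CPM in NE (SD, n = 4). The pooled ethanol difference was -0.05 ± 0.05 (adjusted p = 0.532, edgeR). Igfbp2 and Igfbp5 are neighbours on chromosome 1.

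Igfbp4 (chr11:99041260-99052643, plus strand), which mostly inhibits IGF action until it is cleaved, read between 38.8 and 52.1 CPM. Its mean was lowest in Water-Ethanol at 44.2 ± 4.16 CPM (SD, n = 4) and was 49.1 ± 3.60 in WW, 48.1 ± 2.52 in NW and 47.9 ± 2.34 in NE. Water-Ethanol differed from WW by -0.15 ± 0.07 (adjusted p = 0.267, edgeR) and NE from Water-Ethanol by 0.11 ± 0.06 (adjusted p = 0.834), and the groups overlapped in both. No gene of 15319 passed in NE against Water-Ethanol (0.0%), where 888 had an unadjusted p under 0.05 (5.8%), none of them a member.

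Igfbp5 (chr1:72858065-72874865, minus strand), the member with the highest level, varied least, between 205 and 241 CPM. Its group means were 226 ± 13.5 in WW, 228 ± 6.73 in NW, 220.4 ± 15.3 in Water-Ethanol and 222 ± 9.86 CPM in NE (SD, n = 4). The pooled ethanol difference was -0.04 ± 0.04 (adjusted p = 0.537, edgeR).

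With nicotine, none of the 9 members and no gene of 15592 passed the edgeR test when NW and NE were set against WW and Water-Ethanol (0.0%). Unadjusted p-values were under 0.05 for 1599 genes (10.3%), among the members for Igf1 alone, and DESeq2 called 98 genes but no member. The log2 fold changes of the members ranged from -0.16 to 0.05. The interaction ranged from -0.08 to 0.34 over the members.

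Over a wider list of 75 insulin and IGF pathway genes that excludes the 9 members, 68 were tested. With ethanol, 4 passed and all 4 were higher, 42 of 68 were above 0, and the median log2 fold change was 0.03 against 0.00208 over all genes. That share of 5.88% was near the 4.5% of all genes that passed, so the 4 calls are not a result about the list. An unadjusted p under 0.05 was reached with ethanol by 20 of the 68 (29.4%), against 22.9% of all genes. None passed in the other 6 comparisons. Between 4 and 12 of the 68 (5.88% to 17.6%) had an unadjusted p under 0.05 there, near the 5.8% to 19.3% of all genes.

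Foxo4, a FoxO factor that Akt restrains, had medians of 31.8 CPM with ethanol and 27.2 CPM without, a log2 fold change of 0.21 ± 0.04 (adjusted p = 0.0163, edgeR), and 6 of 8 ethanol mice lay above all others. Sos1, the exchange factor that links the adaptors to Ras, had medians of 111 and 103.5 CPM, a log2 fold change of 0.12 ± 0.03 (adjusted p = 0.031), again with 6 of 8 above all others. Against WW alone Sos1 differed by 0.05 ± 0.04 in Water-Ethanol (adjusted p = 0.522, edgeR) and by 0.06 ± 0.04 in NE (adjusted p = 0.392). It differed by -0.14 ± 0.05 in NW (unadjusted p = 0.0205, adjusted p = 0.494, edgeR), and its interaction was 0.15 ± 0.06 (unadjusted p = 0.0242, adjusted p = 0.709). Ptpn1, a phosphatase that switches off the insulin receptor, had medians of 54.8 and 48.8 CPM, a log2 fold change of 0.15 ± 0.04 (adjusted p = 0.0442). Set against WW, Ptpn1 differed by 0.09 ± 0.05 in Water-Ethanol (adjusted p = 0.384, edgeR) and by 0.12 ± 0.05 in NE (adjusted p = 0.281). In NW it differed by -0.10 ± 0.06 (adjusted p = 0.687, edgeR). These genes sit at different steps of the pathway, and Ptpn1 is an inhibitor.

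Stc1, which inhibits a protease that frees IGFs from binding proteins, had medians of 6.40 and 5.36 CPM, a log2 fold change of 0.35 ± 0.10 (adjusted p = 0.0454, edgeR). Set against WW, Stc1 differed by 0.23 ± 0.11 in Water-Ethanol (adjusted p = 0.267, edgeR) and by 0.25 ± 0.13 in NE (adjusted p = 0.334). In NW it differed by -0.23 ± 0.15 (adjusted p = 0.712, edgeR). The Foxo4 call held in 28 of 30 alternative settings, that of Sos1 in 21 and those of Ptpn1 and Stc1 in 13 each. All 4 calls were lost with the leptomeninges score in the model, where the adjusted p from edgeR was 0.262 for Foxo4, 0.291 for Sos1, 0.288 for Ptpn1 and 0.448 for Stc1. With both marker scores it was 0.28, 0.581, 0.105 and 0.28. The Sos1 call was also lost without any one of 6 mice (WW replicates 3 and 4, NW replicate 2, Water-Ethanol replicate 3, and NE replicates 1 and 3), with an adjusted p of up to 0.0705. Those of Ptpn1 and Stc1 were lost without any one of 11 and 12 mice, with an adjusted p of up to 0.0924 and 0.105. Of the other carriers and receptors, Igf2r, the scavenger receptor for Igf2, differed by 0.06 ± 0.06 with ethanol (adjusted p = 0.553, edgeR). Igfbp3 differed by 0.04 ± 0.05 (adjusted p = 0.662), Igfbp6 by -0.03 ± 0.06 (adjusted p = 0.801) and Igfbp7 by -0.11 ± 0.05 (adjusted p = 0.218).

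Within groups, some pairs of members varied together from mouse to mouse and some ran opposite, while most pairs had r between -0.5 and 0.5. After the group means were removed from log2 CPM, Pearson's r over the 16 mice was 0.88 between the receptors Igf1r and Insr. It was 0.78 between Igf2 and Igfbp2 and 0.74 between Igf2 and Igfbp5, and 0.57 between Irs1 and Irs2. The binding protein Igfbp4 ran opposite to the receptors, with r = -0.71 to Insr and r = -0.69 to Igf1r. Of 36 pairs of members, 6 had r above 0.5 and 4 had r below -0.5, against 7.89% and 7.3% of all gene pairs. Without WW replicate 4 the counts were 5 and 8, against 8.66% and 8.06% of all gene pairs, r between Irs1 and Irs2 was 0.44 in place of 0.57, and the pairs of Igfbp5 with Igf1r and Insr moved from -0.39 and -0.26 to -0.60 and -0.56. These are descriptions over the same 16 libraries, which differed in depth and base composition. The slope of level per 10 points of GC content ran from -0.0815 in WW replicate 2 to 0.131 in NW replicate 1. It was below 0 in every WW mouse and above 0 in every NW mouse, while both signs occurred among the ethanol mice. The libraries differed in how level followed transcript length, with a slope from -0.0444 in NW replicate 1 to 0.0376 in Water-Ethanol replicate 3. The exons of Igf1r and Insr span 11978 and 9355 bases against 1327 for Igfbp2 and 2066 for Igfbp4. Those of Irs1 and Igf1 span 9163 and 7817 bases, with r = -0.20 and r = 0.52 to Igfbp4. Whether length bears on these r values was not tested.

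**Figure D5:**
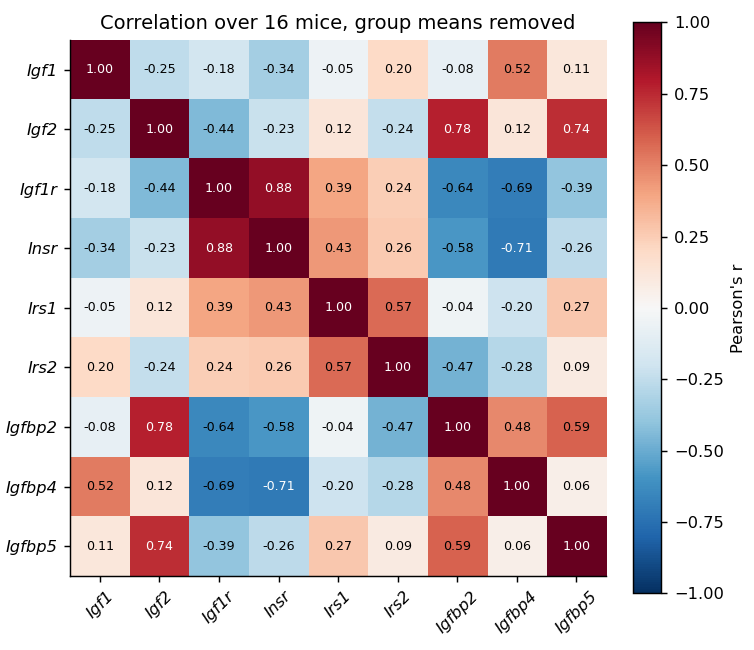
Pearson's r between each pair of the 9 genes over 16 mice, computed on log2 CPM after the mean of each group was removed. Red is positive and blue negative, with r = 0.88 for Igf1r and Insr and r = -0.71 for Insr and Igfbp4.

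The genes whose levels were most like those of a member, again over 16 mice with group means removed, were C1ql3 for Igf1 (r = 0.92), Tcf15 for Igf2 (r = 0.88), Phf20l1 for Igf1r (r = 0.94) and Rhebl1 for Insr (r = 0.92). They were Ubap1 for Irs1 (r = 0.86), Efr3a for Irs2 (r = 0.90), Psmb6 for Igfbp2 (r = 0.93), Dynll1 for Igfbp4 (r = 0.93) and Slc5a1 for Igfbp5 (r = 0.88). The next in order were Ica1l and Klhdc1 for Igf1, Bgn and Sil1 for Igf2, Fam160b1 and Casc3 for Igf1r, Plekha6 and Arhgap21 for Insr, Zbtb5 and Ddit4 for Irs1, Zfp143 and Vav3 for Irs2, Dctn2 and Hpdl for Igfbp2, Impdh2 and Ncbp1 for Igfbp4, and Erc1 and Prcp for Igfbp5. Of these 27 genes, 16 were also among the closest 3 when FPKM was used and 9 when WW replicate 4 was left out, so most of the names depend on the mice included.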

How the data were processed

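RNA of 16 whole brains was sequenced as single reads and processed by the authors. The submitters' processing notes list bcl2fastq 1.8.4, Trimmomatic 0.32, FastQC, TopHat2, Cufflinks, Cuffdiff and build mm10. The authors deposited raw read counts per gene, whose counting program and strand setting are not given in the sources used here, and FPKM per gene. Groups came from the group label, and mice were numbered in accession order. The paper states that mice were housed singly, and the labels do not say whether any shared a litter.

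Counts were filtered with filterByExpr, scaled with TMM and tested over all genes with edgeR 4.0.16 in R 4.3.3 (quasi-likelihood, Benjamini-Hochberg adjusted p under 0.05). Pairwise fits used 8 mice, pooled ethanol, nicotine and interaction contrasts all 16. The code was tested on simulated data. Alternatives were RLE factors, DESeq2 1.42.0, the likelihood-ratio test, other filters, limma 3.58.1 on log2(FPKM + 1) or log2(FPKM + 0.1), marker covariates, GC correction and omission of each mouse. Omission of both mice with low cerebellar markers, GC with length correction and single-score covariates were chosen after seeing the data. GC content was known for 97.1% of genes and for 9 of 9 members (GENCODE transcripts, GRCm38).

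All 9 members are described. Of the pathway list, those passing the test in any comparison, and always Ins1, Ins2, Igf2r, Igfbp3, Igfbp6 and Igfbp7, are named. For each member the 3 genes with the highest Pearson's r are named. Members and lists were chosen with earlier results of these data known.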

Additional observations from a re-analysis of the deposited data

Results flagged for a closer look

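Each group of 4 mice was examined for a single mouse far from the other 3, for each of the 9 genes. In 4 of 36 groups one mouse stood apart, where chance would give about 1 in 20 groups, or 1.8. Igf1 was low in NW replicate 1, at 11.02 CPM, the mouse with the steepest rise of level with GC content (slope 0.131). The transcript GC content of Igf1, 43.63%, was the lowest of the members. The cause of the low value was not tested. Igf1r was high in WW replicate 1, at 127 CPM. Insr was high in Water-Ethanol replicate 3, at 97.7 CPM, the mouse with the steepest rise of level with transcript length. Igfbp5 was low in WW replicate 4, at 206 CPM, a mouse with low cerebellar markers. The difference with ethanol also ran in opposite directions for Igf1 with and without nicotine: all Water-Ethanol mice lay below the WW mean and all NE mice above the NW mean, an interaction of 0.34 on the log2 scale whose edgeR test did not pass after adjustment (adjusted p = 0.687). That NW mean of 14.02 CPM includes the low NW replicate 1. The other NW mice read 14.9 to 15.3 CPM, and NE replicates 2 and 3 read 15.1 and 14.7 CPM, so the pattern leaned on that mouse.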

How the results depend on the processing

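The 3 ethanol calls (Igf1r, Irs1, Irs2) were lost only with the leptomeninges score in the model, alone or with the cerebellum score, where 0 members passed, and held in the other 28 of 30 settings. In NE against WW, where 0 members passed, 1 (Irs2) passed with DESeq2 and with the likelihood-ratio test, and 0 to 1 when single mice were omitted (1 without WW replicate 4, which in this comparison is the same fit as leaving out both mice of low cerebellar markers). In the other 5 comparisons no alternative changed the count of members. Over all genes the count with ethanol ranged from 0 to 1227 across settings, and from 280 to 899 when single mice were omitted. In NE against WW it was 507 with DESeq2, 375 with the likelihood-ratio test, 283 without WW replicate 4, 0 to 11 without any other mouse, 6 with GC correction and 2 with GC and length correction, 26 or 1 with limma, and 0 with both marker scores. In Water-Ethanol against WW (70) it was 606 with DESeq2, 620 with the likelihood-ratio test, 143 with no low-count filter, 37 with GC correction, 28 in the fit of all mice, 0 with limma or both marker scores, and 0 to 797 when single mice were omitted. In NW against WW (0) it was 121, 113, 112 and 92 with DESeq2, the likelihood-ratio test, the fit of all mice and both marker scores. The log2 fold change changed sign in at least 1 setting for 31 of 71 values, of which the largest was 0.13 in size, and none of these passed the test. The cause was not tested. With both marker scores, values became 0.084 (Igf2) and 0.012 (Igfbp4) in NW against WW; 0.083 (Igf2), -0.0044 (Insr), 0.040 (Igfbp2) and 0.013 (Igfbp5) in Water-Ethanol against WW; 0.043 (Igf2), 0.11 (Igfbp2), 0.049 (Igfbp4) and 0.045 (Igfbp5) in NE against WW; 0.021 (Igf2), 0.020 (Igfbp2), 0.0024 (Igfbp5), -0.061 (Igf2r) and 0.056 (Igfbp6) with ethanol; and 0.022 (Igf2) with nicotine. With the leptomeninges score alone they became 0.037 (Igf2), 0.023 (Igfbp2), 0.039 (Igfbp5) and 0.018 (Igfbp6) with ethanol and 0.029 (Igf2) with nicotine, and with the cerebellum score alone 0.013 (Igfbp5, interaction). With GC correction they became -0.014 (Igfbp2, NW against WW), 0.0069 (Igf1r, NE against Water-Ethanol), 0.0080 (Insr) and -0.0092 (Irs2) with nicotine, and 0.040 (Igfbp2) and 0.018 (Igfbp5) in the interaction. With GC and length correction they became -0.026 (Igfbp2, NW against WW), 0.011 (Insr) and -0.0055 (Irs2) with nicotine, and 0.054 (Igfbp2) in the interaction. Without both mice of low cerebellar markers Igfbp5 became -0.0027 in NW against WW and 0.012 in the interaction. Omitting single mice gave ranges across 0: in NW against WW, -0.077 to 0.045 (Igf2), -0.11 to 0.039 (Irs2), -0.074 to 0.00033 (Igfbp4) and -0.024 to 0.039 (Igfbp5); in Water-Ethanol against WW, -0.11 to 0.025 (Igf2) and -0.10 to 0.020 (Igfbp2); in NE against WW, -0.041 to 0.020 (Igfbp2); in NE against Water-Ethanol, -0.045 to 0.056 (Igf1), -0.044 to 0.042 (Igf1r), -0.0069 to 0.066 (Insr), -0.049 to 0.00089 (Irs1), -0.030 to 0.093 (Igfbp2) and -0.028 to 0.053 (Igfbp5); with ethanol, -0.0067 to 0.070 (Igf1) and -0.061 to 0.0023 (Igfbp6); with nicotine, -0.032 to 0.0075 (Insr), -0.016 to 0.056 (Irs2) and -0.0085 to 0.038 (Igfbp5); and in the interaction, -0.080 to 0.042 (Igfbp2) and -0.042 to 0.040 (Igfbp5). No paired analysis was possible because the labels give each mouse a number of its own. With 4 mice in a group the exact test, which counts regroupings of the same mice, cannot go below 0.0286. The edgeR p-values weigh a difference between groups against the spread between mice.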
